A study of Mus musculus with 6 samples.

Results

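Lysosomes are the acidic compartments in which cells digest proteins, glycans and lipids. Their soluble hydrolases, among them cathepsins and glycosidases, are delivered through the Golgi, and their limiting membrane carries heavily glycosylated proteins, lipid exporters and ion channels. The related transcription factors Tfeb and Tfe3 activate many of these genes through a DNA element that contains the palindrome CACGTG, and they are held in the cytoplasm while nutrient signalling through mTORC1 is active. 31 mouse genes of this system were read by name, in 5 groups: 3 regulators, 6 membrane proteins, 8 cathepsins, 7 glycosidases and 7 other soluble proteins. All 31 were found among 51912 Ensembl genes, and 30 of them reached the filter of at least 1 FPKM in at least 3 libraries, each with at least 1 FPKM in all 6 libraries. Cathepsin H (Ctsh) did not reach it.

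The RNA came from mouse embryonic stem cells of the C57BL/6 strain. 3 libraries were labelled Rbbp4KO, with the genotype Rbbp4-/-, and 3 were labelled Rbbp4F/F, the series' control. Rbbp4 binds histones within several chromatin complexes. The labels give neither how nor when the gene was deleted, nor whether the 3 libraries in each group stem from different cultures or clones. The p-values therefore cover the spread among these particular libraries, which may be technical. Expression is in FPKM, which divides fragments by transcript length and by the library's total, and group values are means ± SD over 3 libraries. From the steps between low values, each library was estimated to hold 25800000 to 28900000 fragments, so that 1 fragment on a 2 kb transcript is worth 0.0200 to 0.0225 FPKM.

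Rbbp4 itself had 21.3, 12.7 and 11.1 FPKM in Rbbp4KO replicates 1 to 3, against 58.5, 57.0 and 61.8 FPKM in Rbbp4F/F replicates 1 to 3. Replicate 1 kept the most Rbbp4 transcript of the Rbbp4KO libraries. The summed level of 8 stem cell markers was 1390.2 to 2175.5 FPKM in Rbbp4KO libraries and 4705.3 to 4854.6 FPKM in Rbbp4F/F libraries, and 7 of the 8 fell. For 8 trophoblast markers the sums were 105.2 to 190.8 FPKM in Rbbp4KO and 35.0 to 44.6 FPKM in Rbbp4F/F libraries. Of these markers 6 rose, and Eomes and Elf5 were not called. For 12 markers of primitive and visceral endoderm the sums were 28.0 to 33.0 FPKM in Rbbp4KO and 8.1 to 9.0 FPKM in Rbbp4F/F libraries. Lrp2 alone had 14.3 to 20.3 FPKM in Rbbp4KO and 1.97 to 2.63 FPKM in Rbbp4F/F libraries. Of the 12, 5 reached the filter: Lrp2, Gata4 and Dab2 rose, and Sox17 and Amn were not called. Ttr was listed at 0 in every library. The part of these cell type markers in the lysosomal values was not tested, and in bulk RNA fewer cells of a type and less RNA per cell cannot be told apart. Of 8 macrophage markers 7 were below the filter. Cd68, itself a lysosomal membrane protein, made up 73.9 to 83.2 of their summed 77.0 to 84.8 FPKM in Rbbp4KO libraries. In Rbbp4F/F libraries it made up 40.2 to 41.2 of the 40.7 to 41.6 FPKM. Csf1r, below the filter, had 0.98, 2.68 and 2.95 FPKM in Rbbp4KO against 0.37, 0.26 and 0.12 FPKM in Rbbp4F/F libraries. Itgam (means of 0.11 and 0.0167 FPKM) and Fcer1g (0.27 and 0.03) were also higher in Rbbp4KO without overlap. Ptprc, Adgre1, Lyz2 and Tyrobp overlapped between the groups. Of 8 feeder fibroblast markers only Thy1 reached the filter, and it fell. The others stayed below 1 FPKM in every library and did not follow Thy1. Col3a1 (means of 0.403 and 0.04 FPKM), Dcn (0.727 and 0.213), Col1a2, Pdgfrb and Lum were higher in Rbbp4KO without overlap. Col1a1 and Postn overlapped between the groups.

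Of the 30 lysosomal genes tested, 13 rose and 7 fell in Rbbp4KO cells (limma on log2(FPKM + 1), p adjusted by Benjamini-Hochberg over all 13579 tested genes, threshold 0.05). That is 43.3% higher and 23.3% lower, beside 36.7% higher, 22.5% lower and 59.1% in either direction among all tested genes, so the share of changed genes was near that of the transcriptome. With median-ratio scaling 11 lysosomal genes rose and 8 fell, and setting all libraries to the same FPKM sum gave 16 higher and 4 lower, while all tested genes then split into 3843 higher and 3992 lower, and 6089 higher and 2381 lower. The median log2 fold change was 0.32 for the lysosomal genes and 0.17 for all tested genes. The median of all tested genes was −0.01 with median-ratio scaling, 0.02 for upper-quartile scaling and 0.31 for equal sums, so a change near these values depends on the scaling. Every Rbbp4KO library lay above every Rbbp4F/F library for 15 of the 30 genes (41.3% of all tested genes) and below for 8 (25.5%). When the test asked for more than a 1.5-fold change, 4 genes remained higher (11.3% of all tested genes) and 0 lower (6.18%): Sqstm1, Cd63, Lamp1 and Tpp1.

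The summed level of the 31 genes was 3246.6 ± 185.2 FPKM in Rbbp4KO and 1809.4 ± 63.0 FPKM in Rbbp4F/F libraries, a ratio of 1.79. Sqstm1, Cd63 and Lamp1 alone held 51.7% of the sum in Rbbp4KO and 37.8% in Rbbp4F/F libraries. Without these 3 genes the mean sums were 1567.6 FPKM in Rbbp4KO and 1126.0 FPKM in Rbbp4F/F libraries. The most abundant transcripts thus carried most of the difference in the sum.

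**Figure D1:**
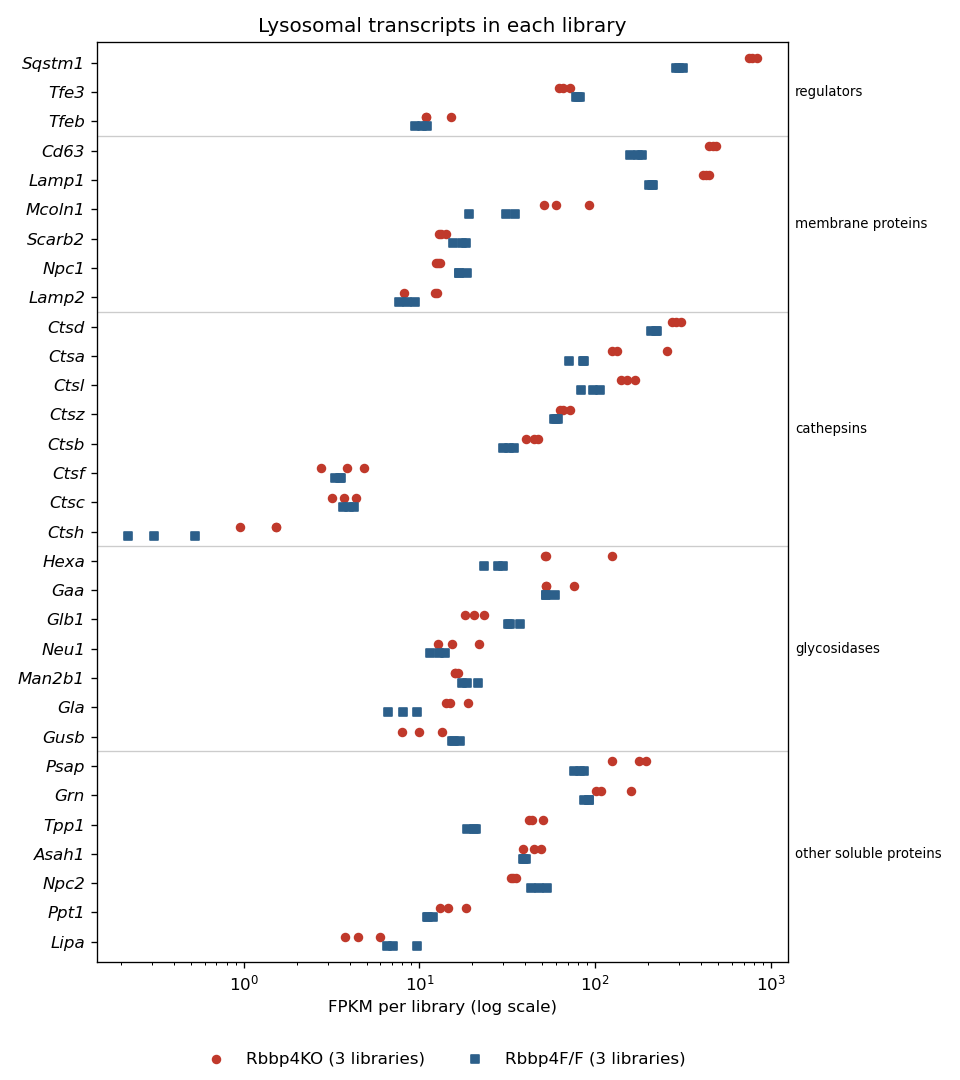
FPKM of each lysosomal transcript in each library, on a log axis, grouped by role and ordered by the Rbbp4KO mean; red circles are the 3 Rbbp4KO libraries and blue squares the 3 Rbbp4F/F libraries. Sqstm1, Cd63 and Lamp1 stand clear of their Rbbp4F/F values, Glb1 and Npc2 lie below them, and Hexa, Ctsa and Mcoln1 each have 1 Rbbp4KO library far above the other two.

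The promoters of some of these genes hold the palindrome named above. RefSeq promoter windows of GRCm38.p6, running from 250 bases before to 50 bases after the start site, matched 27 of the 31 genes by symbol, all but Ctsb, Ctsh, Npc1 and Asah1. CACGTG, which reads the same on both strands, was found in 9 of the 27 (33.3%), beside 12% of 9864 tested genes and 8.1% of all 27025 genes with a window. The longer word TCACGTG, searched on both strands and always overlapping a CACGTG, was found in 7 (25.9%), beside 7.1% of tested genes and 4.3% of all genes. The stretches before the start site that hold the palindrome are shown for the 9 genes because they can be set beside each gene's change, with CACGTG in capitals.
Lamp1, chr8:13159088-13159160, plus strand: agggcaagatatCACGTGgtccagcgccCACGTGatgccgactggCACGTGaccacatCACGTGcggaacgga
Mcoln1, chr8:3500436-3500491, plus strand: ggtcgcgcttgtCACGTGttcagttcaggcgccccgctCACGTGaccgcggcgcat
Ctsa, chr2:164833749-164833772, plus strand: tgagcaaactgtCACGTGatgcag
Ctsd, chr7:142387908-142388077, minus strand: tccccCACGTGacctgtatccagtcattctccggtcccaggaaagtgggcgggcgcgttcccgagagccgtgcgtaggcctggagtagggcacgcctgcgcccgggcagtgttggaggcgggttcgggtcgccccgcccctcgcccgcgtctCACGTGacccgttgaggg
Ctsl, chr13:64370739-64370768, minus strand: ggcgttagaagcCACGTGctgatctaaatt
Ctsf, chr19:4855074-4855103, plus strand: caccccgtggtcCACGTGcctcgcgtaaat
Gla, chrX:134601182-134601244, minus strand: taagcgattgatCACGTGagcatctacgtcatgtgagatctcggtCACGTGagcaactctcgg
Glb1, chr9:114401018-114401047, plus strand: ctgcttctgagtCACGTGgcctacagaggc
Gaa, chr11:119267811-119267840, plus strand: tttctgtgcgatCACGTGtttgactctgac

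Lamp1 held 4 copies, which began 61, 45, 28 and 15 bases before the start site, and Mcoln1 held 2, at 71 and 45 bases. Ctsf and Ctsl were the 2 of the 9 in which no palindrome was extended to TCACGTG. A gene counted where any of its windows held the palindrome, and Ctsa has 2 windows. Its window at 164832622 to 164832921 held none. The other, at 164833523 to 164833822, held the copy shown and 1 that was not wholly before the start site. Of the 9 genes with CACGTG 6 rose, 1 fell and 2 were not called, with a median log2 fold change of 0.68. Of the 18 with a window and no CACGTG 6 rose, 5 fell and 7 were not called, with a median of 0.27. Among all tested genes 36.7% were higher and 22.5% lower, with a median of 0.17. Calls were not compared for the 1181 tested genes with CACGTG in a window. A link between the palindrome and the changes was therefore not tested. A match in these letters is a description and not a binding site.

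**Figure D2:**
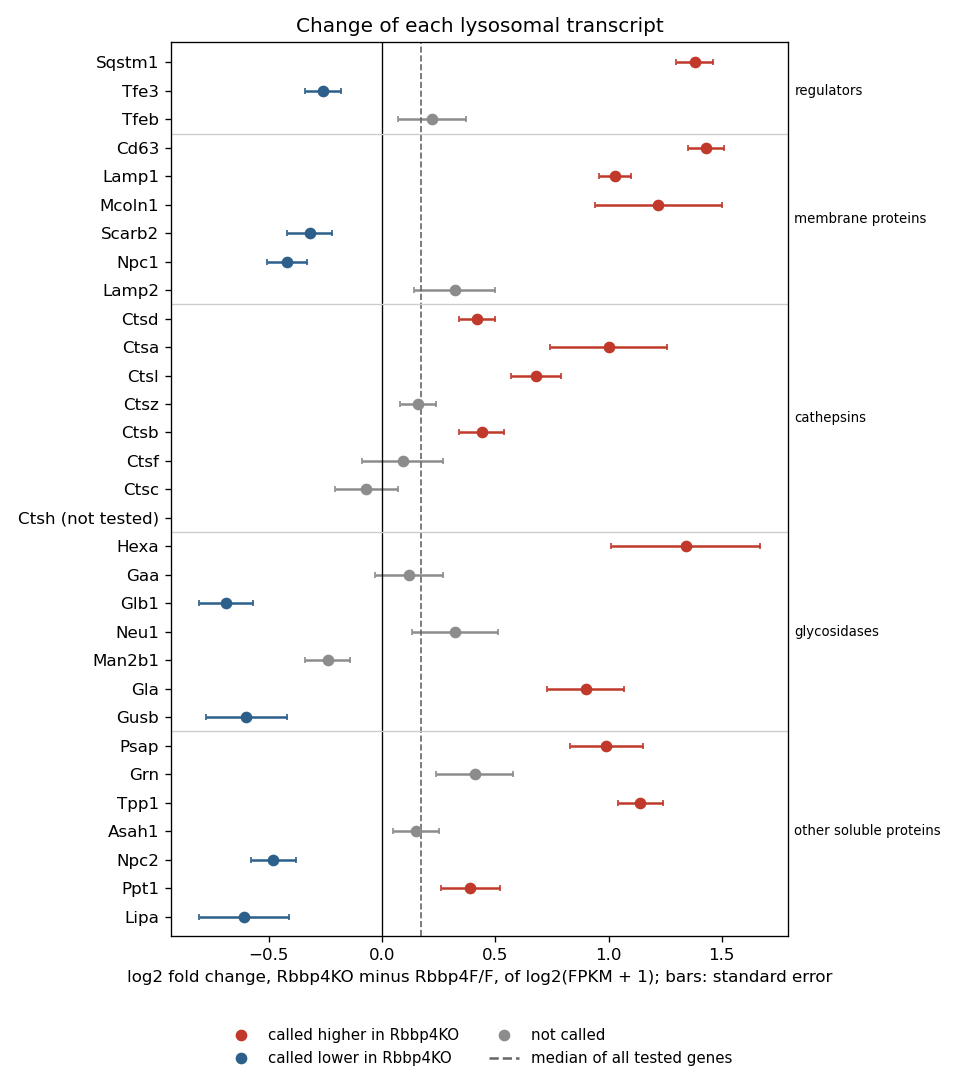
Log2 fold change of each lysosomal transcript, Rbbp4KO minus Rbbp4F/F, with its standard error from limma; red marks genes called higher, blue genes called lower and grey genes not called, and the dashed line is the median of all tested genes at 0.17. Every group except the cathepsins holds called genes on both sides of 0.

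Among the 3 regulators only Sqstm1 rose. Sqstm1 (ENSMUSG00000015837, chromosome 11, 50199366 to 50210827, GRCm38) encodes p62, a receptor that carries ubiquitinated cargo into autophagosomes and is itself degraded in lysosomes. It had 749, 832 and 777 FPKM in Rbbp4KO libraries against 300.1, 288 and 317 FPKM in Rbbp4F/F libraries. It was the most abundant of the 31 transcripts in both groups, and the groups were far apart, at 1.38 on the log2 scale (SE 0.08, adjusted p = 4.25e-05 by limma). Antisense exons of Mrnip cover 17.3% of Sqstm1, and Mrnip averaged 18.1 FPKM in Rbbp4KO and 15.0 FPKM in Rbbp4F/F libraries, far below Sqstm1. The sources used here do not state whether counting used strand, and reads of a gene and its antisense partner may not have been told apart.

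The transcription factors moved little. Tfe3 had 71.7, 62.3 and 65.6 FPKM in Rbbp4KO libraries against 78.0, 80.3 and 81.7 FPKM in Rbbp4F/F libraries, and it fell slightly without overlap between the groups (log2 fold change −0.26, SE 0.08, limma adjusted p = 0.0222). This call was lost with equal FPKM sums (limma adjusted p = 0.202) and when any library other than Rbbp4KO replicate 1 was left out. Tfeb had 15.2, 10.9 and 10.8 FPKM in Rbbp4KO libraries against 10.4, 11.1 and 9.39 FPKM in Rbbp4F/F libraries. Only Rbbp4KO replicate 1 lay above the control range, and Tfeb was not called (0.22, SE 0.15, limma adjusted p = 0.239). On the FPKM scale Tfe3 was thus the more abundant of the pair in every library.

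Of the 6 membrane proteins, Cd63, Lamp1 and Mcoln1 rose and Npc1 and Scarb2 fell. Cd63, a tetraspanin of late endosomes, lysosomes and exosomes, had 485, 468 and 443 FPKM in Rbbp4KO libraries against 176, 186 and 157 FPKM in Rbbp4F/F libraries. This was the largest log2 fold change of the 30 genes tested, 1.43 (SE 0.08, limma adjusted p = 5.23e-05). Lamp1, a major glycoprotein of the lysosomal membrane, had 445, 427 and 412 FPKM in Rbbp4KO libraries against 213, 203 and 210 FPKM in Rbbp4F/F libraries. The Rbbp4KO mean was 2.05 times that of the controls, with little spread (log2 fold change 1.03, SE 0.07, limma adjusted p = 5.78e-05). Antisense exons of Grtp1 cover 9.3% of Lamp1, and Grtp1 averaged 20.9 FPKM in Rbbp4KO and 33.3 FPKM in Rbbp4F/F libraries.

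Lamp2, the close relative of Lamp1 that also serves chaperone-mediated autophagy, behaved differently. It had 8.22, 12.2 and 12.6 FPKM in Rbbp4KO libraries against 8.47, 7.66 and 9.39 FPKM in Rbbp4F/F libraries. Rbbp4KO replicate 1 lay inside the control range while replicates 2 and 3 lay above it, and Lamp2 was not called (0.32, SE 0.18, limma adjusted p = 0.154). Without Rbbp4KO replicate 1 it was called higher (0.50, limma adjusted p = 0.00869). Whether the changes of Lamp1 and Lamp2 differ from each other was not tested.

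Mcoln1 encodes TRPML1, the calcium release channel of lysosomes. It had 92.6, 60.0 and 50.9 FPKM in Rbbp4KO libraries against 35.2, 19.1 and 31.1 FPKM in Rbbp4F/F libraries. The groups did not overlap, but both were spread widely, and the log2 fold change was 1.22, with an SE of 0.28 (adjusted p = 0.00877 by limma). Npc1, which exports cholesterol from the lysosome, had 12.4, 13.1 and 12.8 FPKM in Rbbp4KO libraries against 16.8, 16.9 and 18.7 FPKM in Rbbp4F/F libraries (log2 fold change −0.42, SE 0.09, limma adjusted p = 0.00652). Antisense exons of Rmc1 cover 4.5% of Npc1, and Rmc1 averaged 19.4 FPKM in Rbbp4KO and 19.0 FPKM in Rbbp4F/F libraries. Scarb2, the gene of LIMP-2, which carries glucocerebrosidase to lysosomes, had 14.1, 13.3 and 12.9 FPKM in Rbbp4KO libraries against 17.4, 15.5 and 18.4 FPKM in Rbbp4F/F libraries. Its small fall (−0.32, SE 0.10, limma adjusted p = 0.0284) was lost with equal FPKM sums (adjusted p = 0.168) and without Rbbp4F/F replicate 1 or 3 or Rbbp4KO replicate 2 or 3. Within the summed FPKM of this group, the share of Cd63 was 45.9% to 47.1% in Rbbp4KO libraries and 35.4% to 41.4% in Rbbp4F/F libraries, and that of Lamp1 was 42.1% to 43.6% and 45.4% to 47.2%.

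Of the 7 cathepsins tested, Ctsl, Ctsd, Ctsb and Ctsa were higher and none was lower in limma, beside 36.7% higher and 22.5% lower among all tested genes, and without adjustment 4 were higher and 0 lower at p under 0.05. With equal FPKM sums 6 were higher, with median-ratio scaling 3, and past 1.5-fold 0. Cathepsin D (Ctsd), the main aspartic protease of lysosomes and the most abundant cathepsin here, had 310, 290 and 273 FPKM in Rbbp4KO libraries against 221, 208 and 225 FPKM in Rbbp4F/F libraries. The groups were separate by a modest amount (0.42 on the log2 scale, SE 0.08, limma adjusted p = 0.00318). Same-strand exons of the predicted gene Gm49369 cover 34.4% of Ctsd, where reads cannot be divided with certainty, although Gm49369 was given only 1.77 FPKM in Rbbp4KO and 0.763 FPKM in Rbbp4F/F libraries on average.

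Cathepsin L (Ctsl), a cysteine endopeptidase, had 140, 151 and 167 FPKM in Rbbp4KO libraries against 96.7, 83.1 and 106 FPKM in Rbbp4F/F libraries (log2 fold change 0.68, SE 0.11, limma adjusted p = 0.00212). Antisense exons of Gm47123 cover 26.8% of Ctsl, and Gm47123 averaged 0.137 FPKM in Rbbp4KO and 0.0233 FPKM in Rbbp4F/F libraries. Cathepsin B (Ctsb), a cysteine protease with both endopeptidase and exopeptidase activity, had 40.2, 47.6 and 45.0 FPKM in Rbbp4KO libraries against 34.4, 30.0 and 32.4 FPKM in Rbbp4F/F libraries (0.44, SE 0.10, limma adjusted p = 0.00658). Under median-ratio scaling Ctsb was no longer called (0.25, adjusted p = 0.0591 by limma). Antisense exons of Fdft1 cover 12.8% of Ctsb, and Fdft1 averaged 29.2 FPKM in Rbbp4KO and 56.9 FPKM in Rbbp4F/F libraries. Ctsb averaged 44.2 FPKM and 32.3 FPKM, so the order of the groups was opposite.

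Cathepsin A (Ctsa), the serine carboxypeptidase that protects Neu1 and Glb1 in a complex, had the largest SD of the cathepsins within the Rbbp4KO group. It had 255, 133 and 125 FPKM in Rbbp4KO libraries against 85.0, 70.7 and 86.2 FPKM in Rbbp4F/F libraries. All Rbbp4KO libraries lay above the controls, with replicate 1 at 1.98 times the mean of the other two (1.00 on the log2 scale, SE 0.26, limma adjusted p = 0.0148). The call was lost without Rbbp4F/F replicate 2 (limma adjusted p = 0.0549). Antisense exons of Pltp cover 10.5% of Ctsa, and Pltp averaged 27.2 FPKM in Rbbp4KO and 139.2 FPKM in Rbbp4F/F libraries.

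The other cathepsins were not called. Cathepsin Z (Ctsz), a cysteine carboxypeptidase, had 72.2, 66.0 and 63.3 FPKM in Rbbp4KO libraries against 61.5, 58.6 and 59.7 FPKM in Rbbp4F/F libraries, without overlap and by a small amount (0.16, limma adjusted p = 0.111). Cathepsin C (Ctsc), which activates serine proteases of immune cells, averaged 3.75 ± 0.570 FPKM in Rbbp4KO and 3.96 ± 0.281 FPKM in Rbbp4F/F libraries. Cathepsin F (Ctsf), another cysteine protease, averaged 3.81 ± 1.03 and 3.46 ± 0.155 FPKM, and for both genes the groups overlapped. Ctsh, an aminopeptidase below the filter, had 1.52, 1.52 and 0.95 FPKM in Rbbp4KO libraries against 0.22, 0.31 and 0.53 FPKM in Rbbp4F/F libraries. Without a filter on low values its log2 fold change was 0.78 (limma adjusted p = 0.0125).

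**Figure D3:**
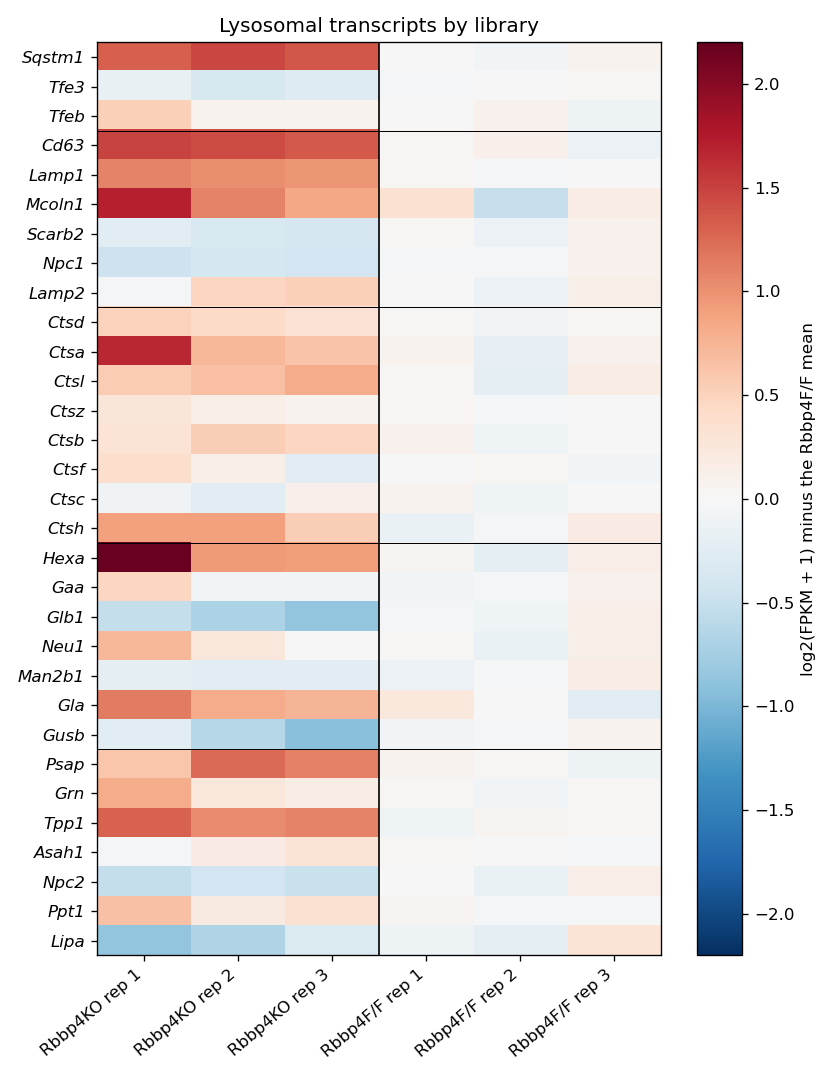
Each lysosomal transcript in each library as log2(FPKM + 1) minus the mean of the 3 Rbbp4F/F libraries, with Rbbp4KO replicates 1 to 3 left of Rbbp4F/F replicates 1 to 3. Rbbp4KO replicate 1 is the darkest red for Hexa, Ctsa and Mcoln1 and paler than replicates 2 and 3 for Psap.

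The glycosidases divided, with 2 higher and 2 lower of 7. Hexa, the alpha subunit of beta-hexosaminidase, had 125, 52.6 and 51.8 FPKM in Rbbp4KO libraries against 28.2, 23.4 and 29.8 FPKM in Rbbp4F/F libraries. Each Rbbp4KO library exceeded each control, and replicate 1 was at 2.39 times the mean of the other two. It changed by 1.34 on the log2 scale (SE 0.33, adjusted p = 0.0111 by limma), and 0.93 without Rbbp4KO replicate 1 (limma adjusted p = 0.00101). Antisense exons of Tmem202 cover 12.8% of Hexa, and Tmem202 had 0.04, 0.13 and 33.8 FPKM in Rbbp4KO libraries and was listed at 0 in each Rbbp4F/F library.

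Gla, the alpha-galactosidase that clears globotriaosylceramide, had 19.0, 14.8 and 14.1 FPKM in Rbbp4KO libraries against 9.64, 8.05 and 6.64 FPKM in Rbbp4F/F libraries (0.90 on the log2 scale, SE 0.17, limma adjusted p = 0.00337). The beta-galactosidase gene Glb1 had the opposite order, with 23.4, 20.6 and 18.2 FPKM in Rbbp4KO libraries against 32.9, 31.8 and 37.5 FPKM in Rbbp4F/F libraries. Its log2 fold change, −0.69 with an SE of 0.12 (adjusted p = 0.00225 by limma), was the lowest of the 30 genes. The beta-glucuronidase gene Gusb had 13.4, 9.93 and 7.99 FPKM in Rbbp4KO libraries against 15.2, 15.8 and 17.0 FPKM in Rbbp4F/F libraries. Replicate 1 of Rbbp4KO lay nearest to the controls (−0.60, SE 0.18, limma adjusted p = 0.0233), and the call was lost when any library other than it was left out.

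3 glycosidases were not called. Gaa, the acid alpha-glucosidase that degrades glycogen, had 76.2, 52.4 and 52.4 FPKM in Rbbp4KO libraries against 52.7, 52.8 and 58.8 FPKM in Rbbp4F/F libraries. Rbbp4KO replicate 1 was the only library that stood out, and the log2 fold change of 0.12 turned to −0.06 without it. The sialidase gene Neu1 had 21.7, 15.3 and 12.7 FPKM in Rbbp4KO libraries against 13.0, 11.4 and 14.0 FPKM in Rbbp4F/F libraries, with overlap (0.32, limma adjusted p = 0.192). Man2b1, the lysosomal alpha-mannosidase, had 16.6, 15.9 and 15.9 FPKM in Rbbp4KO libraries against 17.5, 18.7 and 21.5 FPKM in Rbbp4F/F libraries (−0.24, limma adjusted p = 0.0850). Man2b1 was called lower with median-ratio and upper-quartile scaling. Within the summed FPKM of the glycosidases, Hexa made up 42.3%, 29.0% and 29.9% in Rbbp4KO libraries against 16.7%, 14.4% and 16.1% in Rbbp4F/F libraries, while the share of Glb1 was 7.9%, 11.3% and 10.5% against 19.4%, 19.6% and 20.2%.

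Of the 7 other soluble proteins, Tpp1, Psap and Ppt1 rose and Npc2 and Lipa fell. Tpp1, a tripeptidyl peptidase, had 50.6, 42.2 and 44.0 FPKM in Rbbp4KO libraries against 18.6, 21.0 and 20.5 FPKM in Rbbp4F/F libraries. The gap was wide in relation to the spread (log2 fold change 1.14, SE 0.10, limma adjusted p = 0.000157). Psap, the precursor of the saposins that present sphingolipids to their hydrolases, had 125, 194 and 176 FPKM in Rbbp4KO libraries against 86.0, 82.2 and 75.4 FPKM in Rbbp4F/F libraries. Here replicate 1 was the lowest of the Rbbp4KO libraries (0.99, SE 0.16, limma adjusted p = 0.00195). The palmitoyl-protein thioesterase gene Ppt1 had 18.3, 13.2 and 14.6 FPKM in Rbbp4KO libraries against 11.9, 11.1 and 11.2 FPKM in Rbbp4F/F libraries (0.39, SE 0.13, limma adjusted p = 0.0407). Antisense exons of Cap1 cover 3.5% of Ppt1. Cap1 averaged 168.3 FPKM in Rbbp4KO and 115.2 FPKM in Rbbp4F/F libraries, far above Ppt1 and in the same order. Ppt1 was no longer called under median-ratio scaling (0.21), upper-quartile scaling (0.24), without a filter on low values, and without any one Rbbp4F/F library or Rbbp4KO replicate 3.

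Npc2, which hands cholesterol to Npc1, had 33.1, 35.6 and 33.9 FPKM in Rbbp4KO libraries against 47.7, 43.4 and 53.4 FPKM in Rbbp4F/F libraries (−0.48 on the log2 scale, SE 0.10, limma adjusted p = 0.00473). The acid lipase gene Lipa, whose enzyme releases that cholesterol from its esters, had 3.76, 4.47 and 5.97 FPKM in Rbbp4KO libraries against 7.06, 6.56 and 9.69 FPKM in Rbbp4F/F libraries (−0.61, SE 0.20, limma adjusted p = 0.0319). The Lipa call was lost with equal FPKM sums, without a filter, and without Rbbp4F/F replicate 1 or 3 or Rbbp4KO replicate 1 or 2.

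Grn and Asah1 were not called. The progranulin gene Grn had 159, 108 and 102 FPKM in Rbbp4KO libraries against 92.5, 86.8 and 92.2 FPKM in Rbbp4F/F libraries, without overlap (0.41, SE 0.17, limma adjusted p = 0.0686). It was called higher with equal FPKM sums and without Rbbp4KO replicate 1 (0.21, limma adjusted p = 0.0227) or 3. Acid ceramidase, Asah1, had 38.6, 44.7 and 49.2 FPKM in Rbbp4KO libraries against 40.4, 39.3 and 38.9 FPKM in Rbbp4F/F libraries, with replicate 1 below every control (0.15, limma adjusted p = 0.240). Without replicate 1 it was called higher (0.24, limma adjusted p = 0.0204).

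Rbbp4KO replicate 1 differed from replicates 2 and 3 for many of these genes. It was the highest Rbbp4KO library for 20 of the 30 genes (66.7%), beside 44.9% of the 13405 tested genes with a value above 0 in all 3. It was at least 1.5 times the mean of the other two for 5 genes (16.7%), beside 10.6% of all, namely Hexa, Ctsa, Mcoln1, Neu1 and Grn, at 2.39, 1.98, 1.67, 1.55 and 1.52 times. It was the lowest Rbbp4KO library for 9 of the 30 genes (30%), beside 39.8% of all. Among these 9 were Psap, Lamp2 and Lipa, at 0.676, 0.661 and 0.720 times, and Sqstm1, at 0.931 times. Rbbp4 was at 1.79 times in this library, and its stem cell marker sum was 2175.5 FPKM against 1556.7 and 1390.2 FPKM in replicates 2 and 3. The library's trophoblast marker sum was 105.2 FPKM against 190.8 and 187.6 FPKM, and most of that gap lay in Krt7 and Hand1. Krt7 had 21.6 FPKM against 55.9 and 51.1 FPKM, and Hand1 had 35.3 FPKM against 83.7 and 85.3 FPKM. Tfap2c, the next most abundant of these markers, had 26.7 FPKM against 26.0 and 25.6 FPKM. The part of these differences in the lysosomal values was not tested. Without this library 16 lysosomal genes rose (39.9% of 14030 tested genes) and 6 fell (25.6%).

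Genes of the same compartment outside the 31 were read from wider lists. The vacuolar ATPase pumps protons into lysosomes and other compartments, and of 21 subunit genes 17 were tested, of which 14 rose and 0 fell, against 36.7% and 22.5% of all tested genes. Without adjustment, limma put 15 higher and 0 lower at p under 0.05. The list's median log2 fold change was 0.74. With median-ratio or upper-quartile scaling 11 rose and 0 fell. Past 1.5-fold 4 were higher and 0 lower, beside 11.3% and 6.18% of all tested genes. The list was chosen with earlier results of these data known. Atp6v1a, the catalytic subunit, had 57.5, 58.9 and 61.3 FPKM in Rbbp4KO libraries against 32.4, 29.4 and 32.3 FPKM in Rbbp4F/F libraries (0.90, SE 0.08, limma adjusted p = 0.000146). The accessory subunit gene Atp6ap1 (0.85) and the stalk subunit gene Atp6v1d (0.88) rose by a similar amount. The Rbbp4KO libraries had 72.8 to 80.2 FPKM for Atp6ap1 and 42.0 to 49.4 FPKM for Atp6v1d, against 39.8 to 42.5 FPKM and 23.0 to 24.4 FPKM in Rbbp4F/F libraries. These genes have the smallest p of the list, and others varied more within the Rbbp4KO group. Atp6v0b, a subunit of the membrane sector, had 321, 206 and 189 FPKM in Rbbp4KO libraries against 96.6, 93.1 and 108 FPKM in Rbbp4F/F libraries, and the summed FPKM of the list was 2258.8, 1800.5 and 1694.9 in Rbbp4KO libraries against 1203.7, 1202.7 and 1176.3 in Rbbp4F/F libraries. Rbbp4KO replicate 1 was the highest in both. Atp6v0b was chosen after its values were seen.

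Of 24 further hydrolases and cofactors tested, 11 rose and 2 fell, with a median of 0.39, and with median-ratio scaling 8 rose and 5 fell. Smpd1, the acid sphingomyelinase, had 16.4, 16.6 and 15.1 FPKM in Rbbp4KO libraries against 6.71, 5.81 and 5.87 FPKM in Rbbp4F/F libraries (a ratio of means of 2.62, limma adjusted p = 0.000141), and the heparan sulfatase gene Sgsh averaged 4.07 ± 0.0945 FPKM in Rbbp4KO and 1.37 ± 0.0551 FPKM in Rbbp4F/F libraries. Of 17 further membrane proteins and transporters 8 rose and 1 fell, and with median-ratio scaling 7 rose and 2 fell. Both lists stand beside 36.7% higher and 22.5% lower among all tested genes. Cln3, a membrane protein lost in juvenile Batten disease, had 71.8, 39.3 and 40.3 FPKM in Rbbp4KO libraries against 15.2, 13.3 and 11.2 FPKM in Rbbp4F/F libraries (1.81, SE 0.24, limma adjusted p = 0.000824), with replicate 1 again the highest. Cd68 averaged 77.5 ± 4.96 FPKM in Rbbp4KO and 40.6 ± 0.556 FPKM in Rbbp4F/F libraries, and Ostm1, a partner of the lysosomal chloride transporter, 12.9 ± 0.330 and 8.15 ± 0.595 FPKM.

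In the list of factors related to Tfeb and of their nutrient-sensing control, 7 of 17 tested genes rose and 2 fell. These counts stand beside 36.7% higher and 22.5% lower among all tested genes. The list's median was 0.22, beside 0.17 for all tested genes. With median-ratio scaling 5 rose and 3 fell, while equal FPKM sums gave 12 higher and 1 lower. Rragc, a Rag GTPase that brings mTORC1 and Tfeb to the lysosome, had 53.4, 46.2 and 46.3 FPKM in Rbbp4KO libraries against 13.97, 11.97 and 13.25 FPKM in Rbbp4F/F libraries. This gap was wide beside the spread (1.82, SE 0.10, limma adjusted p = 4.27e-05). Fnip1, which acts on that GTPase together with folliculin, averaged 9.65 ± 0.730 FPKM in Rbbp4KO and 3.34 ± 0.648 FPKM in Rbbp4F/F libraries and rose. Lamtor2, a subunit of the Ragulator scaffold that holds the Rag GTPases on the lysosome, fell to 57.1 ± 4.18 FPKM in Rbbp4KO libraries, against 106.8 ± 4.62 FPKM in Rbbp4F/F libraries (−0.89, SE 0.08, limma adjusted p = 0.000187).

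**Figure D4:**
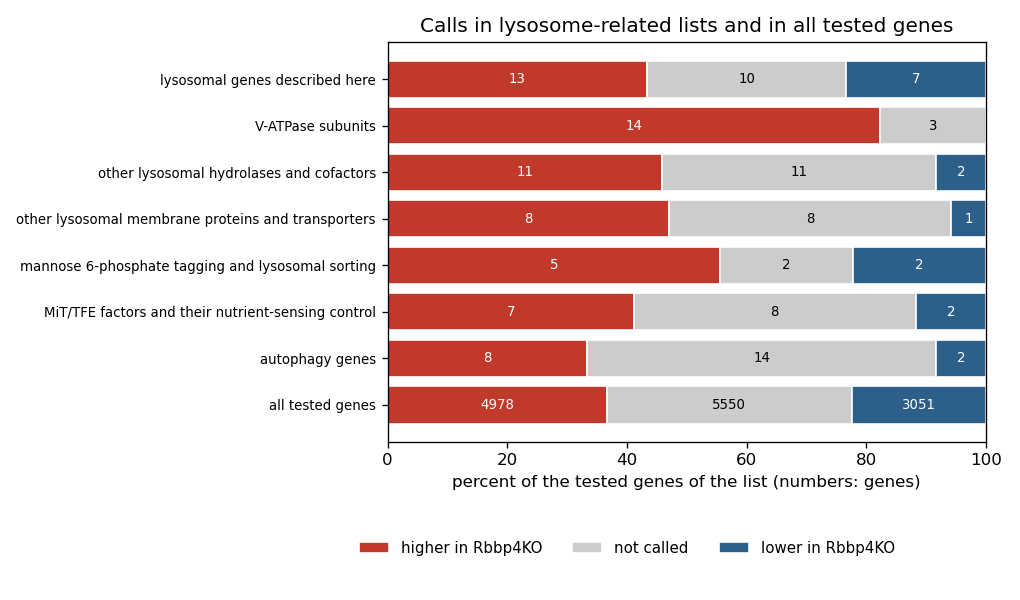
Percent of the tested genes of each lysosome-related list, and of all tested genes, that were higher (red, left), not called (grey) or lower (blue, right) in Rbbp4KO libraries by limma, with the number of genes in each bar. Among the V-ATPase subunits 14 of 17 were higher and 0 lower, and the shares of the genes described above were near those of all tested genes.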

How the data were processed

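Total RNA of 6 mouse embryonic stem cell libraries, 3 Rbbp4KO and 3 Rbbp4F/F, was sequenced, and the authors deposited 1 table per library. The unit of these tables is read from their values as FPKM, a length- and depth-scaled value that the authors computed before depositing them. GRCm38.p6 is the build in the submitters' processing notes, which also list the tools HISAT2 2.1.0, FastQC, DESeq 1.26.0 and RSEM. The sources used here do not give the annotation release or the use of strand. Here FPKM were taken as log2(FPKM + 1), a gene was kept where 3 or more libraries reached 1 FPKM, and Rbbp4KO was compared with Rbbp4F/F with limma 3.58.1 in R 4.3.3 with an intensity trend, adjusted by Benjamini-Hochberg over 13579 genes at 0.05. Fold changes are on that log2 scale, which understates changes of low genes. The deposited values also cover 958 assembled loci that are not Ensembl genes. Any of these that reached the filter count among the tested genes, and the run without a filter left them out. Low values gave 25800000 to 28900000 fragments per library, as 85.0% to 88.8% of them lay within 0.15 of a whole step. The members and lists were chosen with earlier results of these data known, and the genes named are all 31 members, Rbbp4 and, from each wider list, up to 3 called genes with the smallest p, of which 1 is not reported here. Alternatives were 3 other scalings, another pseudocount, other filters, a replicate block, a 1.5-fold threshold and leaving out each library. The limma fit was also run on simulated data with far fewer changed genes than here and no scaling difference between groups. That run therefore cannot decide between the scalings.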

Additional observations from a re-analysis of the deposited data

How the results depend on the processing

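Cd63, Lamp1, Tpp1 and Sqstm1 kept their call in every alternative run. With equal FPKM sums the lysosomal genes called lower numbered 4, those among the other soluble proteins and the membrane proteins 1 each and among the regulators 0, and without a filter on low values 1 other soluble protein was lower. Past 1.5-fold, 1535 tested genes were higher and 839 lower, and of the lysosomal genes 4 were higher and 0 lower. This stricter threshold left 0 cathepsins higher, 0 glycosidases higher or lower, and 1 other soluble protein higher and 0 lower. It left 0 membrane proteins lower and 0 regulators lower. Leaving out 1 library at a time gave 12 to 16 lysosomal genes higher and 3 to 6 lower. The counts lower were 1 to 2 for glycosidases, other soluble proteins and membrane proteins and 0 to 1 for regulators, and 2 to 5 other soluble proteins were higher. Directions turned for genes that were not called. With median-ratio scaling these were Ctsf (−0.065), Ctsz (−0.030), Gaa (−0.072) and Asah1 (−0.039), and with upper-quartile scaling Ctsf (−0.042), Ctsz (−0.001), Gaa (−0.043) and Asah1 (−0.010). Ctsc turned to 0.056 with equal sums. With 1 library left out, Ctsc ranged from −0.157 to 0.017 (without Rbbp4KO replicate 2), and Ctsf from −0.063 to 0.252 and Gaa from −0.059 to 0.206, both negative without Rbbp4KO replicate 1. Why calls and directions changed in these runs was not tested. Deviations of libraries with the same replicate number correlated at −0.009 to 0.049, so the numbers were not taken to pair them. A fit with the replicate block called 4872 tested genes higher and 2907 lower, and 13 lysosomal genes higher and 6 lower, with 1 membrane protein lower, since the Scarb2 call was lost (adjusted p = 0.0541). With 3 libraries a group precision is limited. Without a record of separate cultures the spread between libraries may be technical, and the p-values may then be too small for differences between cultures.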

Other observations

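Genes that tag and sort lysosomal enzymes moved in both directions, with 5 of 9 higher and 2 lower by limma and a median log2 fold change of 0.35, beside 36.7% higher and 22.5% lower among all tested genes. Nagpa, which uncovers the mannose 6-phosphate signal, had 61.1, 41.6 and 34.3 FPKM in Rbbp4KO libraries against 19.8, 19.0 and 15.4 FPKM in Rbbp4F/F libraries (a ratio of means of 2.53, limma adjusted p = 0.00217). Gnptg, a subunit of the enzyme that adds the signal, averaged 23.8 ± 3.65 FPKM in Rbbp4KO and 13.7 ± 0.793 FPKM in Rbbp4F/F libraries. Gga2, an adaptor for the receptors that sort the tagged enzymes, fell to 39.9 ± 7.92 FPKM in Rbbp4KO libraries, against 76.6 ± 2.16 FPKM in Rbbp4F/F libraries (−0.94, SE 0.14, limma adjusted p = 0.00112). With median-ratio scaling 2 of the 9 rose and 3 fell, and with upper-quartile scaling 2 rose and 2 fell.

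Of 24 autophagy genes 8 rose and 2 fell, against the same shares of all tested genes, and the balance depended on the scaling. With median-ratio scaling 6 rose and 8 fell, with upper-quartile scaling 6 rose and 6 fell, while equal FPKM sums gave 14 higher and 1 lower. Atg14, a subunit of the kinase complex that starts autophagosomes, had 20.9, 19.6 and 19.9 FPKM in Rbbp4KO libraries against 8.67, 8.57 and 8.32 FPKM in Rbbp4F/F libraries (1.15, SE 0.09, limma adjusted p = 0.000104). Atg3, which conjugates LC3 to lipid, averaged 32.4 ± 2.69 FPKM in Rbbp4KO and 15.9 ± 0.681 FPKM in Rbbp4F/F libraries. The kinase gene Ulk1, whose product initiates autophagy, fell to 19.4 ± 0.898 FPKM in Rbbp4KO libraries, against 42.5 ± 2.29 FPKM in Rbbp4F/F libraries (−1.09, SE 0.08, limma adjusted p = 9.82e-05).

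Tmem202, antisense to part of Hexa, was at 33.8 FPKM in Rbbp4KO replicate 3 and at most 0.13 FPKM in the other 5 libraries. It was singled out after its values were seen.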
